A study of Rattus norvegicus with 6 samples.

Results

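The cytosolic ribosomal protein genes are the 105 of 30957 rows of the expression table whose symbol starts with Rpl or Rps and goes on with a subunit number (with a letter or copy number where there is one), P0 to P2, or A. The choice used names alone and no measured value. Rpl and Rplp rows were counted to the large subunit (67 rows) and Rps and Rpsa rows to the small subunit (38 rows). Mitochondrial ribosomal proteins and the Rps6 kinases lie outside the rule. The 105 rows carry 83 different symbols, and 34 rows share their symbol with another row. RNA came from the flexor digitorum longus, a deep toe flexor of the hind limb, in wild-type Sprague-Dawley rats. The ACS group (3 libraries, 18 h) had acute compartment syndrome of the limb, in which pressure in a closed muscle compartment limits its blood flow, induced by a tight low-elastic loop around the knee. The Control group (3 libraries, 0 h) is named by its titles, while the treatment field reads ACS for all 6 libraries. The labels give no ages and do not say whether the libraries are from separate rats. The p-values then reflect only how far these libraries vary, which may be technical.

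Each ribosome is built from a large subunit, which joins amino acids, and a small subunit, which reads the mRNA, and cells make their protein components in matched amounts. In vertebrates the mRNAs of these proteins begin with a C followed by a run of pyrimidines, the 5′ terminal oligopyrimidine (TOP) motif, through which mTORC1 and Larp1 control their translation and stability. Skeletal muscle and heart also hold a paralogue of a core large subunit protein, Rpl3l, which in mice takes the place of Rpl3 in a share of muscle ribosomes and falls as Rpl3 rises when a muscle is loaded to grow.

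Library totals lay between 14340865 and 19376341 counts in the ACS group, against 18450886 and 21003928 counts in the Control group. ACS replicate 1 stood apart. The mitochondrial chromosome held 43.4% of its counts, against 4.82% and 5.33% in the other ACS libraries and 7.52% to 8.60% in the control libraries, and 13 leukocyte marker genes summed to 2169 CPM (counts scaled to library size), against 154 and 158 CPM in the other ACS libraries and 52.1 to 76.5 CPM in control libraries. All CPM below are scaled with TMM factors. Muscle fibre markers were high in all libraries: the 9 of 12 markers matched summed to 89771, 126351 and 214307 CPM in ACS libraries, against 159544, 151264 and 136768 CPM in control libraries. The description field of ACS replicate 3 and of Control replicate 3 holds the letters "ji", which the labels do not explain.

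Start sites of the members are shown because the TOP motif is what couples these genes to translation control. RefSeq's table of rat promoters is on build GRCr8, while the deposited table is on Rnor 6.0. The promoter table held a window for 57 member rows, matched by symbol and chromosome, of which 48 were tested for a difference. Member symbols with more than 1 window were left out, while the set of all windows kept such symbols. A start with C followed by 4 bases that are C or T was found in 20 of the 57 windows (35.1%), against 2.63% of all 33469 windows. An unbroken run of at least 5 pyrimidines across the annotated start was found in 31 windows (54.4%), against 12.0% of all. The following windows give 10 bases before the annotated start and 20 from it, with the unbroken pyrimidine run that reaches the annotated start, whatever its length, in capitals:
Rpl3, chr7:113507971-113508000, minus strand: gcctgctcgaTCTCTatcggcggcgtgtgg
Rpl3l, chr10:14258436-14258465, plus strand: ctggtgcctggtggggaggtcccttcctaa
Rplp0, chr12:46718371-46718400, minus strand: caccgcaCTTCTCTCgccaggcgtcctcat
Rpl4, chr8:73566467-73566496, plus strand: TCTTCCTTTTCCTgtgggagcagccgggta
Rpl37a, chr9:81748081-81748110, plus strand: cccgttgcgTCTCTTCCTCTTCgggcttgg
Rpsa, chr8:128728869-128728898, plus strand: ccgcgctaCCCTggaacgggtccgtacggc
Rps27, chr2:177964587-177964616, minus strand: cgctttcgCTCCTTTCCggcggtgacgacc
Rpl7l1, chr9:21695708-21695737, plus strand: cagatgcattgtgggaagcctttaactcgt
Rpl22l1, chr2:113683186-113683215, plus strand: gtggatatccggttccgagttgcgcagcgc
Rplp0, Rpl4, Rpl37a and Rps27, which belong to the standard ribosome, start inside such a run, and so does Rpl3, whose annotated first base is T. The run of Rpsa has 4 bases and is not among the 31. The paralogues Rpl3l, Rpl7l1 and Rpl22l1 have no pyrimidine run at the annotated start. The median log2 fold change of ACS over control was 0.19 for the 29 tested members with a run of at least 5 and -0.061 for the 19 with a shorter one, given as a description.

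The promoters of Rpl3 and Rpl3l, 250 bases before the start and 20 from it, are shown because this pair differed most between libraries. Capitals mark CANNTG, the E-box, which the myogenic factors of the MyoD family can bind:
Rpl3, chr7:113507971-113508240, minus strand: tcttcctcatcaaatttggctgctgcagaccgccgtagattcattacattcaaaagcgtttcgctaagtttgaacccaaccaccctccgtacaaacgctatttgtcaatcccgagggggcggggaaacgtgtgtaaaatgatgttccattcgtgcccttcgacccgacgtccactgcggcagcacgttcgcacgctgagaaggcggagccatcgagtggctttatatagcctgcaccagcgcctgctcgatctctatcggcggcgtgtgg
Rpl3l, chr10:14258196-14258465, plus strand: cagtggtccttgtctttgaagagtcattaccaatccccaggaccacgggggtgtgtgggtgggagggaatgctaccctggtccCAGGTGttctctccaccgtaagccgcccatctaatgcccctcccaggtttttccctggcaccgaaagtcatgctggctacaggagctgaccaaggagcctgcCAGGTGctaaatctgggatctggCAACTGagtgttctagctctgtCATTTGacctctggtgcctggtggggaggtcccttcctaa
The Rpl3l window holds 4 such hexamers and the Rpl3 window 0. Of the member windows 2 (3.51%) hold 4 or more, against 5.79% of all windows, and 33 (57.9%) hold at least 1, against 72.1% of all. 4 other motifs were searched on both strands of the 300-base windows. TCGCGA, a palindrome searched after the data were seen, lay in 15 member windows (26.3%) and 2.29% of all. A 10-base palindrome that contains it lay in 8 member windows (14.04%) and 0.373% of all. CTTCCG, the core of ETS factor sites, lay in 30 member windows (52.6%) and 16.6% of all. CAGCTG, its own reverse complement and 1 form of CANNTG, lay in 3 member windows (5.26%) and 15.1% of all.

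Ribosomal protein mRNAs as a group stood near their control level at 18 h. Of the 105 members 78 passed the filter on low counts (47 large, 31 small), and edgeR's quasi-likelihood test with Benjamini-Hochberg adjustment over 12873 genes put 0 of them past an adjusted p of 0.05 in either direction. Over all genes tested 442 were called higher (3.43%) and 91 lower (0.707%). With library totals in place of TMM factors the split over all genes was 345 higher and 228 lower, and the members again had 0 calls. At an unadjusted p under 0.05 edgeR had 6 members higher (5 large, 1 small, 7.69% of the members), against 15.5% of all genes, and 0 lower, against 7.98% of all genes. DESeq2 called 3 members higher, against 8.97% of all genes it gave an adjusted p. Limma-voom called 0 members higher, against 2.04% of all genes, and limma on log2(FPKM + 1) called 1, against 2.26%. Each of these tools called 0 members lower, against 2.91%, 0.552% and 2.43% of all genes. Without ACS replicate 3 edgeR called 4 members higher, against 9.72% of all genes, and 0 lower, against 3.01%. The 95% interval of the log2 fold change reached past 1 in size in 41 of the 78 members, with a median half-width of 0.80, so the absence of calls does not show that these levels were equal. The filter left out 27 members, of which 15 had a count of 0 in every library, Rpl8, Rplp2 and Rps6 among them.

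The median log2 fold change of ACS over control was 0.081 over the 78 members, with quartiles of -0.15 and 0.32, against a median of -0.011 over all genes tested, with quartiles of -0.43 and 0.54. With library totals in place of TMM the median of all genes was -0.32 and that of the members -0.22, so the sign of the members' median turned with the scaling. It also turned without ACS replicate 3, to -0.14 (-0.014 over all genes), without Control replicate 1, to -0.099 (-0.044 over all genes), and without both ji libraries, to -0.035 (-0.0036 over all genes). The members' median lay above that of all genes with both scalings and below it in these 3 settings. A log2 fold change under 1 in size was found in 72 members (92.3%), against 78.6% of all genes. Members with a mean of at least 10 CPM had a median of 0.010 (60 members), and those under 10 CPM had a median of 0.53 (18 members). Over all genes tested the same split gave medians of 0.038 and -0.079. In these bulk samples fewer cells of a type and less RNA per cell cannot be told apart. In the plot of fold change against level the abundant members lie close to 0 and the widest values belong to rows with few counts.

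**Figure D1:**
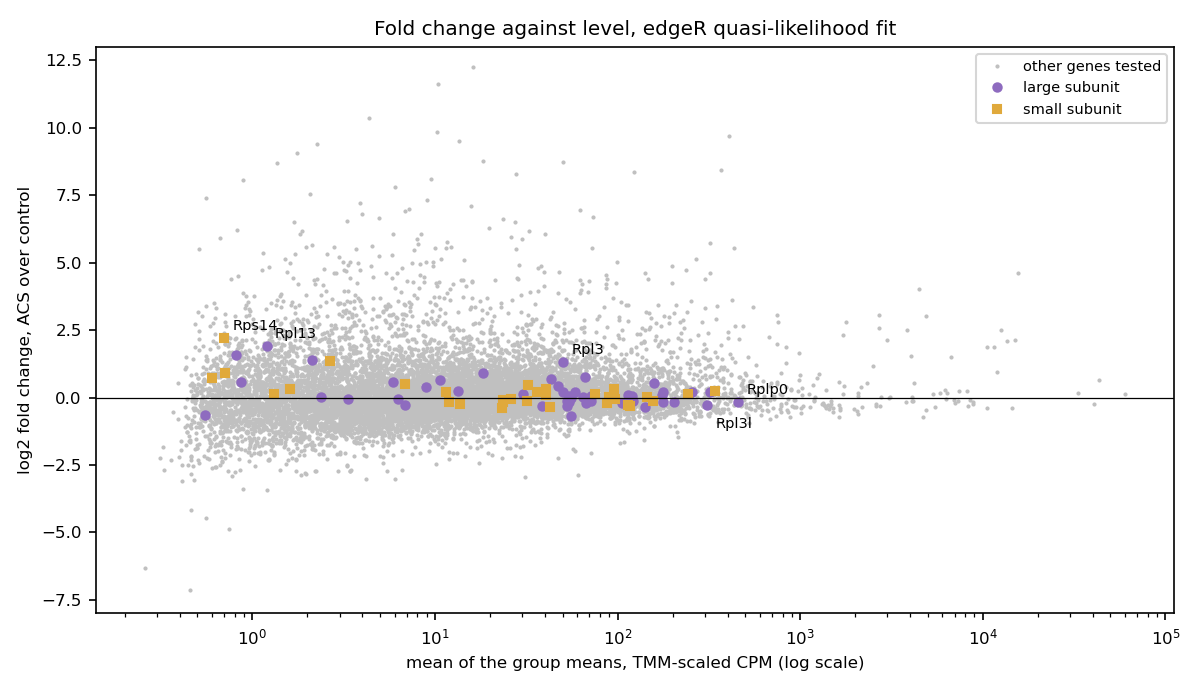
Log2 fold change of ACS over control from edgeR (y axis) against the mean of the 2 groups' mean TMM-scaled CPM (x axis, log scale) for 12873 genes tested; purple circles are 47 large subunit rows, yellow squares 31 small subunit rows, grey dots other genes. The members lie between -0.68 and 2.19, and Rpl3 stands at 1.32 among large subunit rows near 0.

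Every ACS library lay above every control library in 11 members (14.1%; 6 large, 5 small), against 16.7% of all genes tested, and below in 0 members, against 14.8% of all genes. The 11 are Rpl3, Rpl34, Rpl12, Rpl7l1, Rpl10l, Rpl13, Rpsa, Rps10 on chromosome 20, Rps14, Rps20 and Rps27a. With all rows of a protein summed, as described below, L34, L12, L13, S10, S20 and S27A did not separate the groups. L3, L7L1, L10L, SA and S14 did, of which L3, L7L1 and L10L have no second row. Several of the 11 rows reach only a few counts per library, as described below. Among rows with few counts the filter favours those high in either group, and so separation. The median deviation of the members from their mean log2 level in the control libraries, by library, was -0.12, -0.12 and 0.39 in the ACS libraries, against -0.20, 0.070 and 0.13 in the control libraries. The standard deviation of these values over the members was 1.00, 0.63 and 0.49 in ACS libraries, against 0.31, 0.31 and 0.44 in control libraries; over all genes tested it was 1.58, 1.11 and 0.96 in ACS libraries, against 0.36, 0.38 and 0.39 in control libraries. ACS replicate 1 was the most scattered library by both measures. Each control library is part of the mean it was measured from and the ACS libraries are not. Control deviations are therefore smaller by construction, and these spreads do not compare the groups on equal terms.

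**Figure D2:**
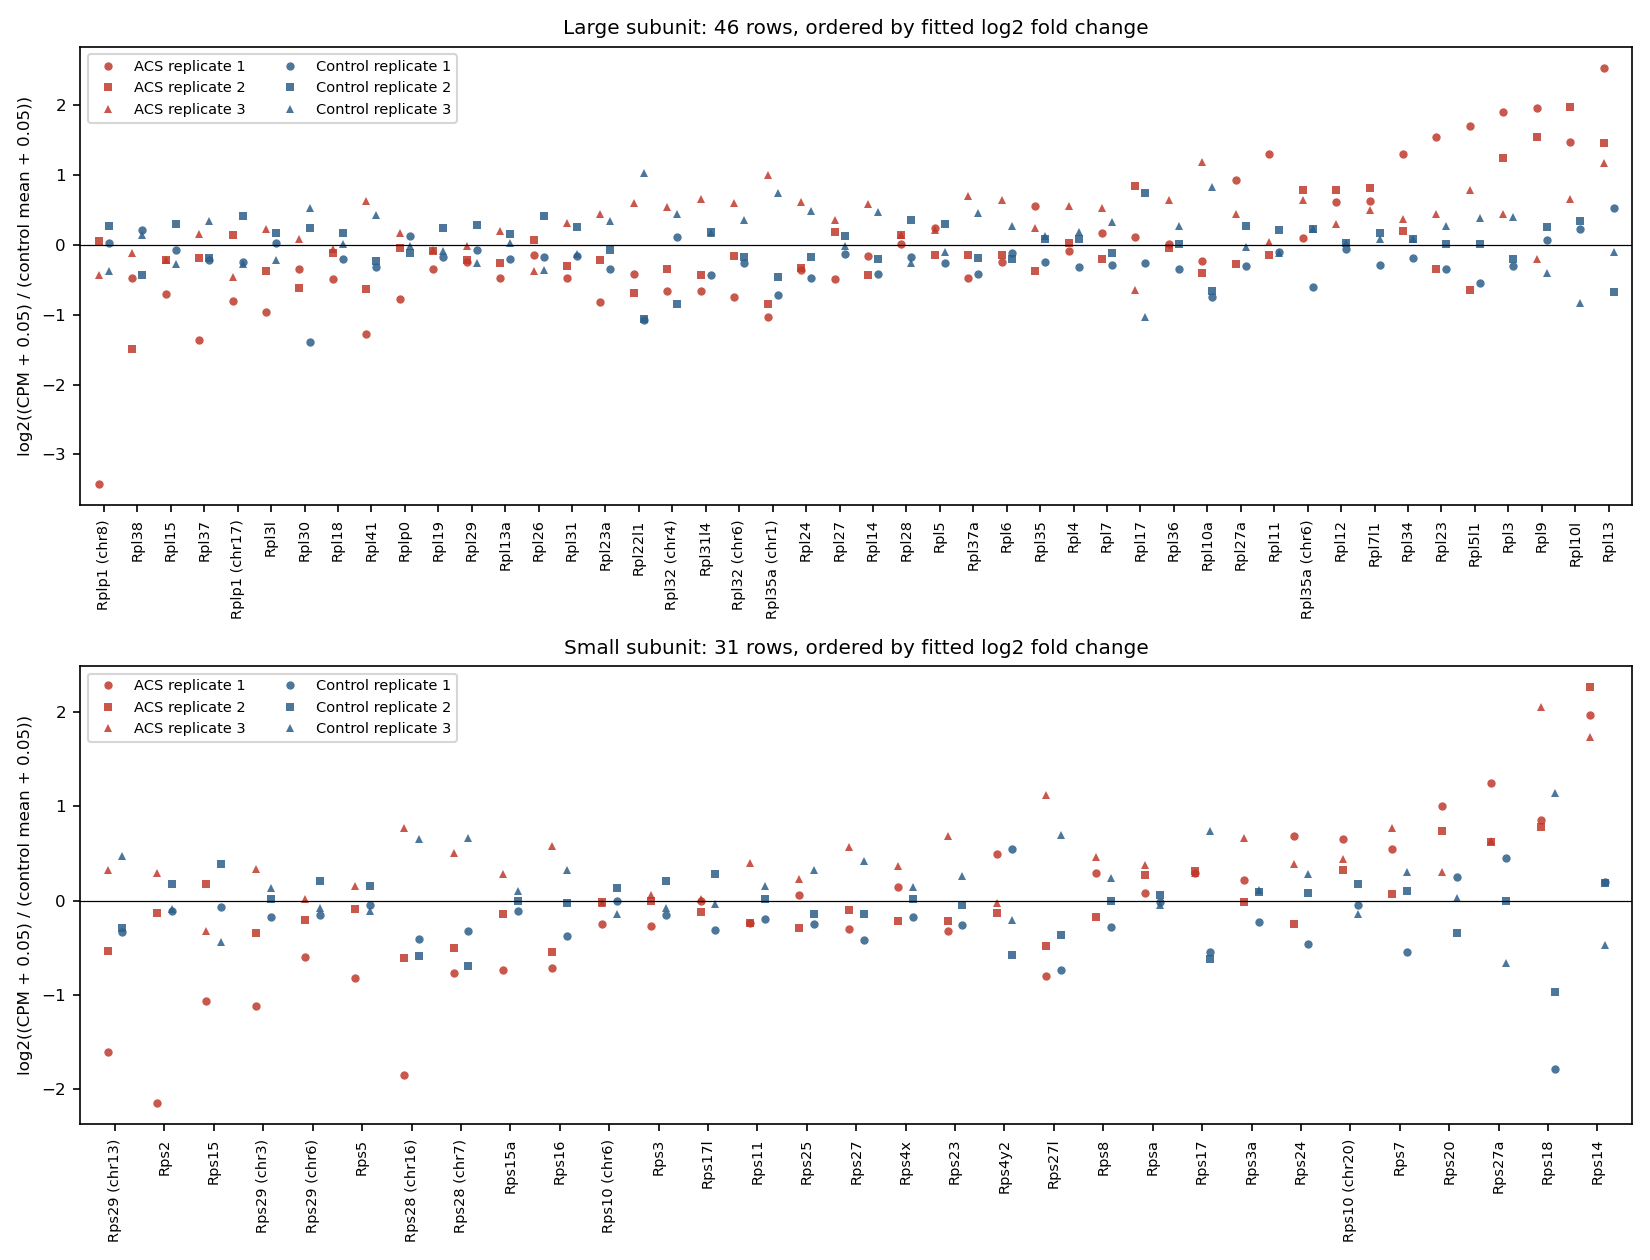
Value of each row shown in each library, as log2 of (CPM + 0.05) over (control mean + 0.05), for 46 large subunit rows (upper panel) and 31 small subunit rows (lower panel), ordered from left to right by fitted log2 fold change; red symbols are ACS libraries and blue symbols control libraries, with a shape for each replicate. Most rows overlap between groups, ACS replicate 1 (red circle) makes many of the lowest and highest points, and both replicates 3 (triangles) often lie above the rest.

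The members took 0.393%, 0.556% and 0.670% of all counts in the ACS libraries, against 0.571%, 0.706% and 0.694% in control libraries. Of the counts off the mitochondrial chromosome they took 0.694%, 0.584% and 0.708% in ACS libraries, against 0.624%, 0.770% and 0.750% in control libraries. The groups overlap on both scales, and ACS replicate 1, the lowest library by share of all counts, lies within the control range once mitochondrial counts are left out. Summed TMM-scaled CPM averaged 5964 ± 969 in the ACS group and 5854 ± 546 in the Control group (SD, n = 3 each).

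The balance of large and small subunit rows overlapped between the groups. Large subunit rows held 2.24, 2.09 and 1.89 times the counts of small subunit rows in ACS libraries, against 2.09, 2.17 and 1.92 times in control libraries, a mean of 2.07 ± 0.18 in the ACS group and 2.06 ± 0.13 in the Control group (SD, n = 3 each). The lowest ratio in each group belongs to its replicate 3. The median log2 fold change was 0.063 over 47 large subunit rows and 0.10 over 31 small subunit rows, a difference of -0.041 that turned sign under several alternatives. Since these are summaries over the members, no test is given.

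**Figure D3:**
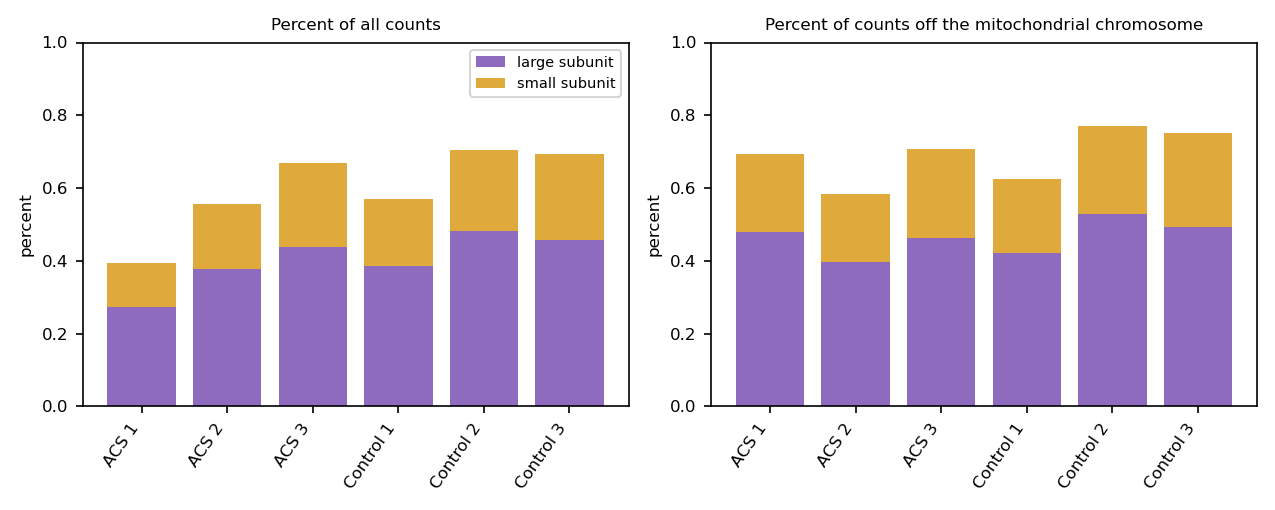
Percent of counts in ribosomal protein rows by library (ACS left, Control right), stacked as large subunit (purple) and small subunit (yellow); the left panel is out of all counts and the right panel out of counts off the mitochondrial chromosome. Shares of all counts lie between 0.393% and 0.670% in ACS libraries and between 0.571% and 0.706% in control libraries; the large subunit makes the greater part in every bar.

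Rpl3, the large subunit protein that reaches into the peptidyl transferase centre, showed the widest difference among members with a mean of at least 10 CPM. Its row (ENSRNOG00000016896, Rnor 6.0, chr7:121297356-121302818, minus strand) held 108, 68.6 and 39.3 CPM in ACS libraries, against 23.4, 24.96 and 38.2 CPM in control libraries. The groups do not overlap, but ACS replicate 3 lies barely above Control replicate 3, and these are the libraries marked ji. The log2 fold change was 1.32 ± 0.39 (SE), with a 95% interval of 0.42 to 2.21. It missed the threshold in edgeR's quasi-likelihood test (adjusted p = 0.0888) and passed in DESeq2 (adjusted p = 0.0255). Without ACS replicate 1 the log2 fold change was 0.90 (edgeR adjusted p = 0.122). Leaving out ACS replicate 3 gave 1.61 (edgeR adjusted p = 0.0253).

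Rpl3l, its striated muscle paralogue, held 174, 261 and 397 CPM in ACS libraries, against 345, 380 and 293 CPM in control libraries (ENSRNOG00000014641, Rnor 6.0, chr10:14094754-14105308, plus strand). ACS replicate 1 was lowest and ACS replicate 3 highest of all 6 libraries, so the groups overlap. The log2 fold change was -0.29 ± 0.35 (SE; edgeR adjusted p = 0.638), with a 95% interval of -1.08 to 0.50. Scaled by length, Rpl3 averaged 43.7 ± 15.7 FPKM in the ACS group and 22.8 ± 7.10 FPKM in the Control group, while Rpl3l averaged 190 ± 91.4 FPKM in the ACS group and 282 ± 32.7 FPKM in the Control group (SD, n = 3 each). Rpl3l thus stayed the more abundant of the pair in both groups.

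Counts of Rpl3 per count of Rpl3l were 0.619, 0.263 and 0.0992 in ACS libraries, against 0.0678, 0.0657 and 0.130 in control libraries. ACS replicates 1 and 2 stand above all controls, and ACS replicate 3 lies below Control replicate 3. On the log2 scale the ratio averaged -1.98 ± 1.32 in the ACS group and -3.58 ± 0.56 in the Control group, a difference of 1.60 (two-sided exact permutation test, p = 0.2; smallest possible p = 0.1; p = 0.533 adjusted over 4 pairs). The difference is within the spread of the libraries. It was 0.95 without ACS replicate 1, 2.27 without ACS replicate 3 and 2.60 without both ji libraries. ACS replicate 1 is also the library with the highest summed leukocyte markers, and the part of other cell types in the ratio was not tested.

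A pair of elongation factors with the same tissue pattern was set beside it. Eef1a2 is the muscle form of elongation factor 1A and Eef1a1, whose mRNA is of the TOP class, is the form of most other tissues. Counts of Eef1a1 per count of Eef1a2 were 0.579, 0.132 and 0.0625 in ACS libraries, against 0.0678, 0.0807 and 0.0787 in control libraries. The 3 ACS libraries fall in the same order as for Rpl3 and Rpl3l. The log2 difference was 1.16 (two-sided exact permutation test, p = 0.4, and p = 0.533 adjusted over 4 pairs).

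**Figure D4:**
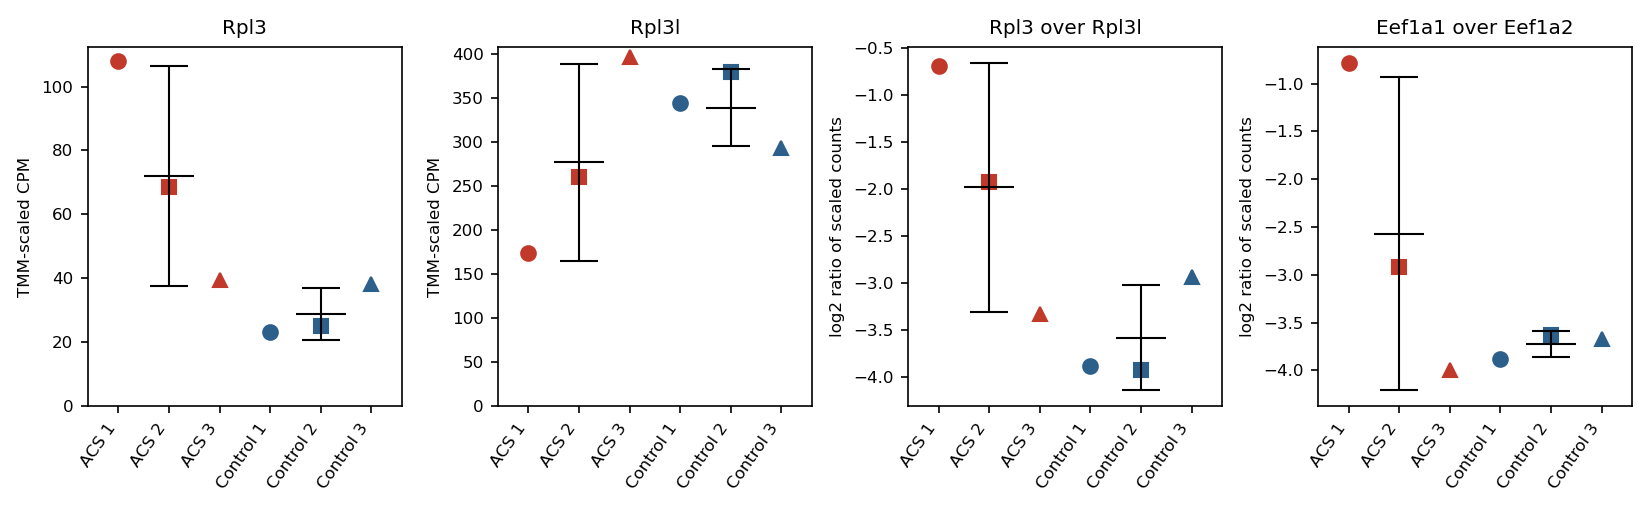
TMM-scaled CPM of Rpl3 and of Rpl3l (2 left panels), and log2 ratio of scaled counts of Rpl3 over Rpl3l and of Eef1a1 over Eef1a2 (2 right panels), per library with ACS left and Control right; horizontal lines are group means and bars are 1 SD (n = 3 each). The Rpl3 over Rpl3l ratio runs from -3.33 to -0.69 in ACS libraries and from -3.93 to -2.94 in control libraries, and ACS replicate 1 is highest in both ratio panels.

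The remaining paralogue pairs gave no wider difference. Rps27l, a p53 target in human cells, and its paralogue Rps27 had a log2 ratio (Rps27 over Rps27l) that differed by 0.019 between ACS and control (two-sided exact permutation test, p = 1). The ratio of Rpl7 to Rpl7l1, a diverged paralogue, differed by -0.47 (two-sided exact permutation test, p = 0.3, and p = 0.533 adjusted over 4 pairs). Rpl7l1 itself held 12.7, 14.5 and 11.6 CPM in ACS libraries, against 6.73, 9.29 and 8.71 CPM in control libraries, without overlap, at a log2 fold change of 0.65 (edgeR adjusted p = 0.200). Rpl10l, a testis form of Rpl10 in mice, had 13, 34 and 12 counts in ACS libraries, against 10, 11 and 5 counts in control libraries (log2 fold change 1.57; edgeR adjusted p = 0.152). The other 5 pairs listed were not tested, since at least 1 row of each did not pass the filter or was not matched.

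The stalk of the large subunit, which recruits elongation factors, is built from P0, P1 and P2. Rplp0, the member with the highest CPM, held 281, 466 and 544 CPM in ACS libraries, against 525, 446 and 478 CPM in control libraries. The groups overlap, with ACS replicate 1 lowest and ACS replicate 3 highest. Rplp1 on chromosome 8, the chromosome of the RefSeq gene, held 6.36, 71.2 and 50.9 CPM in ACS libraries, against 70.3, 82.9 and 53.3 CPM in control libraries. Its log2 fold change of -0.68, the lowest among the members (edgeR adjusted p = 0.568), was -0.18 without ACS replicate 1. The second Rplp1 row, a copy on chromosome 17, held 24.6, 47.3 and 31.3 CPM in ACS libraries, against 36.2, 57.1 and 35.6 CPM in control libraries.

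Rplp0 and Rpl19 were among the most abundant large subunit rows by FPKM, and neither passed the threshold. Rpl19 averaged 248 ± 60.02 FPKM in the ACS group and 343 ± 56.8 FPKM in the Control group (SD, n = 3 each). FPKM divide by the library total, which mitochondrial counts inflate in ACS replicate 1. On TMM-scaled counts the log2 fold changes were -0.17 for both Rplp0 and Rpl19, and the sign for Rplp0 turned to 0.062 without ACS replicate 1.

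Besides Rpl3, the highest large subunit values belonged to rows with few counts. Rpl13 held 3.09, 1.44 and 1.17 CPM in ACS libraries, against 0.731, 0.290 and 0.454 CPM in control libraries (log2 fold change 1.91; edgeR adjusted p = 0.0923; DESeq2 adjusted p = 0.0458). Rpl9 held 4.68, 3.50 and 1.01 CPM in ACS libraries, against 1.22, 1.40 and 0.867 CPM in control libraries (log2 fold change 1.38; edgeR adjusted p = 0.193). Rpl13 separates the groups and Rpl9 does not. At the low end, after Rplp1, stood Rpl38 on chromosome 8, with 64 counts in all (log2 fold change -0.65), and Rpl15, with 97.5, 136 and 137 CPM in ACS libraries, against 150, 195 and 131 CPM in control libraries (log2 fold change -0.36; edgeR adjusted p = 0.466).

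A few well-counted large subunit rows had their single highest value in ACS replicate 1; they were picked after their values were seen. Rpl11, which with Rpl5 binds Mdm2, held 317, 116 and 132 CPM in ACS libraries, against 120, 149 and 119 CPM in control libraries. Rpl23, another Mdm2 binder, held 145, 39.1 and 67.4 CPM in ACS libraries, against 39.0, 49.96 and 59.6 CPM in control libraries. Their partner Rpl5 showed no such value, with 197, 152 and 194 CPM in ACS libraries, against 139, 206 and 156 CPM in control libraries. All 3 rows overlap between the groups.

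In the small subunit the most abundant rows by FPKM were Rps29 on chromosome 3, Rpsa and Rps4x on chromosome 4. Rpsa, first described as a laminin receptor precursor, held 331, 377 and 405 CPM in ACS libraries, against 308, 326 and 303 CPM in control libraries. Each ACS library lies above each control library (two-sided exact permutation p = 0.1, the smallest possible), but the difference is small: a log2 fold change of 0.25 with a 95% interval of -0.33 to 0.83 (edgeR adjusted p = 0.586), which was -0.057 with library totals. Rps29 on chromosome 3 averaged 563 ± 310 FPKM in the ACS group and 816 ± 110 FPKM in the Control group, and Rps4x averaged 232 ± 52.0 FPKM in the ACS group and 270 ± 36.9 FPKM in the Control group (SD, n = 3 each). Both rows lie on another chromosome than the RefSeq gene of their symbol, as do 26 of the 105 member rows and 12 of the 78 tested.

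Rps14, a small subunit component, came closest to the threshold. It held 1.12, 1.39 and 0.949 CPM in ACS libraries, against 0.293, 0.290 and 0.165 CPM in control libraries. The groups are well apart, but the row rests on 12, 27 and 17 counts in ACS libraries, against 6, 6 and 4 counts in control libraries. The control counts lie under the filter's minimum count of 10, so edgeR tested the row only through its ACS libraries. That favours separation and a small p. The tools given next used the same counts and are not separate evidence. The log2 fold change was 2.19 ± 0.51 (SE), at an edgeR adjusted p of 0.0521, a DESeq2 adjusted p of 0.0295 and a limma adjusted p of 0.0368 on log2(FPKM + 1).

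Other small subunit rows with high fold changes were also sparse. Rps18 held 2.71, 2.57 and 6.25 CPM in ACS libraries, against 0.390, 0.725 and 3.30 CPM in control libraries (log2 fold change 1.37; edgeR adjusted p = 0.309), so that Control replicate 3 lies above ACS replicates 1 and 2. Rps27a, made as a fusion with ubiquitin, held 1.22, 0.772 and 0.781 CPM in ACS libraries, against 0.683, 0.484 and 0.289 CPM in control libraries (log2 fold change 0.91; edgeR adjusted p = 0.332). Rps10 on chromosome 20, a protein that is ubiquitinated on collided ribosomes in human cells, is better counted: it held 42.3, 33.6 and 36.5 CPM in ACS libraries, against 25.9, 30.3 and 24.2 CPM in control libraries (log2 fold change 0.48; edgeR adjusted p = 0.253). A second Rps10 row lies on chromosome 6. Summed over all rows named for S10, as described below, the log2 fold change was 0.16. The sums were 73.3, 72.4 and 68.5 CPM in ACS libraries, against 60.5, 76.1 and 54.9 CPM in control libraries, and the groups overlap. The lowest small subunit rows were Rps29 on chromosome 13 (log2 fold change -0.40), Rps2 on chromosome 10 (-0.34) and Rps15 (-0.31), with edgeR adjusted p of 0.629, 0.709 and 0.631. Rps2 held 10.8 CPM in ACS replicate 1, against 43.9 to 58.6 CPM in the other 5 libraries, and its sign turned to 0.093 without that library.

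Ribosomal protein genes have many near-identical copies, and the sources used here do not state how reads that match more than 1 copy were counted. Besides the 105 members, 190 rows carry the name of a ribosomal protein with a member row in their symbol or description. Together these 295 rows belong to 76 proteins, with paralogues such as L3L and L7L1 counted as proteins of their own. Rows named for a ribosomal protein without a member row were left out, so the sums do not cover the whole ribosome. Member rows held 70.5% to 72.2% of those counts in each library. For 21 proteins the member rows held under 50% of the counts, so their own rows are a minor part of the reads assigned to that protein. Counts were therefore also summed over all rows of a protein, an alternative chosen after the data were seen.

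Summed per protein, the values again lay near control. Among 74 proteins tested the median log2 fold change was 0.068 (0.078 for 47 large and 0.041 for 27 small subunit proteins). S14 alone passed the edgeR threshold (log2 fold change 2.15; adjusted p = 0.049), with 74 counts in all; 0 were lower. In that fit 3.52% of 12806 rows were called higher and 0.734% lower. For 8 proteins with under 10% of their counts in member rows, out of 68 proteins in both fits, the median log2 fold change was 0.75 for the own rows and 0.074 for the sums. The own row of Rps18 holds 1.90% of the counts named for S18, and the sum had a log2 fold change of -0.22, against 1.37 for the row. The own row of Rpl13 holds 0.965% of the L13 counts (0.19 summed, 1.91 for the row), that of Rpl9 holds 2.26% of the L9 counts (-0.25 summed, 1.38 for the row), and that of Rps27a holds 0.70% of the S27A counts (0.073 summed, 0.91 for the row). Rpl3 has no second row, so its value of 1.32 was the same in both fits and the sum is no check on it. The own row of Rps14 holds 97.3% of the S14 counts, so that sum is hardly a check either.

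**Figure D5:**
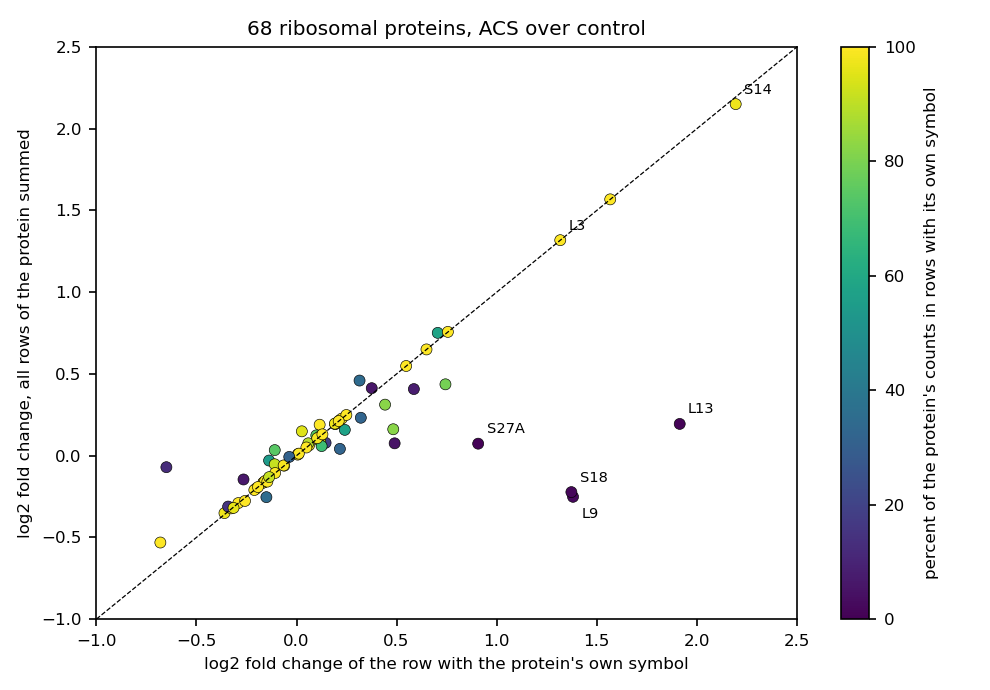
Log2 fold change of ACS over control for the row with a protein's own symbol (x axis) against that of all rows of the protein summed (y axis), for 68 ribosomal proteins; colour gives the percent of the protein's counts that the member rows hold, and the dashed line marks equal values. S18, L13, L9 and S27A, whose own rows hold 0.70% to 2.26% of the counts, drop from between 0.91 and 1.91 for the row to between -0.25 and 0.19 for the sum. L3, which has no second row, and S14, with 97.3% of its counts in the own row, lie on the line by construction.

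A further pattern ran across the groups. In 27 of 78 members (34.6%; 15 large, 12 small) both ji libraries, ACS replicate 3 and Control replicate 3, lay above all other 4 libraries, against 6.17% of all genes tested. They lay below in 4 members (5.13%), against 4.59% of all genes. With a ji term beside group, edgeR called 0 members, against 1 gene higher (0.00777%) and 0 lower over all genes. At an unadjusted p under 0.05 edgeR had 18 members higher in the ji libraries and 2 lower, against 2.24% and 1.78% of all genes. The members with the smallest ji p, chosen after their values were seen, were Rpl10a, Rps27l and Rpl22l1. Rpl10a held 17.7 and 13.7 CPM in the ji libraries of ACS and Control, against 6.55 and 5.81 CPM in the other ACS libraries and 4.58 and 4.89 CPM in the other control libraries. Rpl22l1, the paralogue of Rpl22, held 9.71 and 13.2 CPM in the ji libraries of ACS and Control, against 4.77 and 3.96 CPM in the other ACS libraries and 3.02 and 3.05 CPM in the other control libraries. Rps27l held 23.2 and 17.3 CPM in the ji libraries of ACS and Control, against 6.08 and 7.62 CPM in the other ACS libraries and 6.39 and 8.27 CPM in the other control libraries. The log2 fold changes of ji over the other libraries were 1.53 ± 0.29 for Rpl10a, 1.66 ± 0.35 for Rpl22l1 and 1.50 ± 0.30 for Rps27l (SE), at an edgeR adjusted p of 0.972 for each. All 3 rows have both ji libraries above the rest. The Rpl10a row, however, holds only 6.14% of the counts named for L10A. Summed over all L10A rows the level was 206, 168 and 151 CPM in ACS libraries, against 108, 173 and 114 CPM in control libraries. The sum thus lacks the ji pattern. Rpl22l1 and Rps27l have no second row.

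Row length was set beside this pattern. The rank correlation of a member's deviation with the length of its row was taken over 78 rows of 1 library each, as a description. It was -0.14 and -0.31 in the ji libraries of ACS and Control, against 0.28 and 0.16 in the other ACS libraries and 0.17 and 0.25 in the other control libraries. Deviations were from the control mean, which includes Control replicate 3. A negative value there tends to push the other control values up, and ACS values share that reference. The contrast is thus partly fixed in advance, and no such correlation was made over all genes. Single rows, picked after their values were seen, lay on both sides. Among short rows Rps28 on chromosome 16 (210 bases) had a ji log2 fold change of 1.52 and Rpl35a on chromosome 1 (348 bases) one of 1.66. Rplp1 on chromosome 17 (345 bases) had -0.30. Among longer rows Rpl17 (906 bases) had -1.27 and Rpl10a (715 bases), a minor row of its protein, had 1.53. The part of length or of library preparation in this pattern was not tested.

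Beyond the ribosome, the other genes of the TOP class and its control were listed by name, with earlier results of these data known. Of 19 translation genes of the TOP class outside the ribosome 17 were tested, and 0 passed the edgeR threshold in either direction (3 higher and 0 lower at an unadjusted p under 0.05, against 15.5% and 7.98% of all genes). Their median log2 fold change was 0.11, against -0.011 over all genes. Hnrnpa1, an RNA-binding protein, lay at the border: it held 164, 106 and 72.4 CPM in ACS libraries, against 26.3, 36.8 and 49.1 CPM in control libraries (log2 fold change 1.61 ± 0.37, SE; edgeR adjusted p = 0.0501). Pabpc1, the poly(A)-binding protein, held 773, 300 and 150 CPM in ACS libraries, against 101, 83.3 and 94.0 CPM in control libraries (log2 fold change 2.13; edgeR adjusted p = 0.0626). Naca, a subunit of the complex that meets nascent chains at the ribosome, had a log2 fold change of 0.87 (edgeR adjusted p = 0.192). All 3 had their highest value in ACS replicate 1. Eef2, the translocation factor, held 1160, 1807 and 1447 CPM in ACS libraries, against 1878, 2001 and 1520 CPM in control libraries, and the groups overlap.

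Of 17 tested genes of mTORC1 and TOP mRNA control 1 rose and 0 fell, against 3.43% and 0.707% of all genes. Their median log2 fold change was 0.15. At an unadjusted p under 0.05 edgeR had 3 higher and 0 lower, against 15.5% and 7.98% of all genes. The gene that rose was Sesn2, a stress-induced inhibitor of mTORC1, with 50.6, 30.7 and 14.7 CPM in ACS libraries, against 8.63, 6.96 and 7.39 CPM in control libraries (log2 fold change 2.06 ± 0.43, SE; edgeR adjusted p = 0.0406). Without ACS replicate 2 its adjusted p was 0.0747, and without any 1 control library it was 0.156 to 0.185. Eif4ebp1, a translation repressor that mTORC1 phosphorylates, held 114, 126 and 56.3 CPM in ACS libraries, against 26.8, 32.7 and 45.1 CPM in control libraries (log2 fold change 1.50; edgeR adjusted p = 0.0553). Eif4e, the cap-binding protein that Eif4ebp1 holds back, held 151, 235 and 155 CPM in ACS libraries, against 90.3, 119 and 87.3 CPM in control libraries (log2 fold change 0.86; edgeR adjusted p = 0.118). Larp1, which binds the TOP motif, held 211, 224 and 226 CPM in ACS libraries, against 154, 124 and 179 CPM in control libraries (log2 fold change 0.53; edgeR adjusted p = 0.253). In all 4 every ACS library lay above every control library, as in 16.7% of all genes tested. Sesn2, Eif4ebp1 and Eif4e were picked by smallest adjusted p, which favours such separation.

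Of 11 tested chaperones and modifying enzymes of ribosomal proteins 0 passed the threshold, with a median log2 fold change of 0.31, and with 3 higher and 1 lower at an unadjusted p under 0.05, against 15.5% and 7.98% of all genes. Rrs1, which brings Rpl5 and Rpl11 into the growing large subunit in yeast, held 46.8, 19.9 and 7.87 CPM in ACS libraries, against 6.83, 5.66 and 5.99 CPM in control libraries (log2 fold change 2.01; edgeR adjusted p = 0.0779). Grwd1, a chaperone for Rpl3 in human cells and yeast, held 16.5, 21.1 and 10.8 CPM in ACS libraries, against 8.88, 9.33 and 8.59 CPM in control libraries (log2 fold change 0.85; edgeR adjusted p = 0.142). Ltv1, which carries Rps3 to the small subunit in yeast, held 31.3, 24.5 and 23.6 CPM in ACS libraries, against 13.8, 16.3 and 15.6 CPM in control libraries (log2 fold change 0.80; edgeR adjusted p = 0.0988). All 3 separate the groups, ACS replicate 3 being the lowest ACS library in each. Of all genes tested 16.7% separate them in this direction, and these 3 were picked by smallest adjusted p, which favours it. The gene lower at an unadjusted p under 0.05 separates them the other way, as do 14.8% of all genes.

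Of 13 tested genes of ribosome rescue and collision 1 rose and 0 fell, against 3.43% and 0.707% of all genes. Their median log2 fold change was 0.077. At an unadjusted p under 0.05 edgeR had 1 higher and 1 lower, against 15.5% and 7.98% of all genes. Pelo, which splits stalled ribosomes together with Hbs1l, held 46.2, 49.96 and 28.9 CPM in ACS libraries, against 10.2, 11.3 and 11.2 CPM in control libraries. The log2 fold change was 1.93 ± 0.28 (SE; edgeR adjusted p = 0.0155), and it was 1.85 without ACS replicate 1 (edgeR adjusted p = 0.00811). Without any 1 control library its adjusted p was 0.101 to 0.143. Rnf14, a ubiquitin ligase that acts on stalled ribosomes in human cells, held 26.0, 33.7 and 47.4 CPM in ACS libraries, against 55.005, 64.2 and 65.9 CPM in control libraries (log2 fold change -0.79; edgeR adjusted p = 0.136). Every ACS library lay below every control library, as in 14.8% of all genes tested. G3bp2, a stress granule protein, had a log2 fold change of 0.52 (edgeR adjusted p = 0.228). Hbs1l, the partner of Pelo, held 48.3, 64.8 and 103 CPM in ACS libraries, against 85.6, 70.9 and 80.4 CPM in control libraries.

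Of 11 tested leukocyte markers 2 rose and 0 fell, against 3.43% and 0.707% of all genes. These were Csf3r (log2 fold change 5.50; edgeR adjusted p = 0.0436) and Itgam (4.03; adjusted p = 0.0470). At an unadjusted p under 0.05 edgeR had 10 higher and 0 lower, against 15.5% and 7.98% of all genes. Without ACS replicate 1 the log2 fold changes were 3.45 for Csf3r and 2.22 for Itgam (edgeR adjusted p = 0.0179 and 0.0119), and without any 1 control library the adjusted p was 0.132 to 0.200. The markers' summed level was 2169, 154 and 158 CPM in ACS libraries, against 53.1, 76.5 and 52.1 CPM in control libraries, while the T cell marker Cd3e had 8 counts and the B cell marker Cd79a 39 counts over all libraries. Fibroblast markers summed to 2535, 2524 and 3118 CPM in ACS libraries, against 1191, 787 and 1042 CPM in control libraries, with Col1a2 listed at 0 in all. Of 7 tested 0 passed the edgeR threshold in either direction, against 3.43% higher and 0.707% lower of all genes. At an unadjusted p under 0.05 edgeR had 5 higher and 0 lower, against 15.5% and 7.98% of all genes. Endothelial markers summed to 522, 313 and 176 CPM in ACS libraries, against 366, 232 and 290 CPM in control libraries. Of 6 tested 0 passed the edgeR threshold, and at an unadjusted p under 0.05 edgeR had 0 higher and 1 lower, against the same shares. The part of these cells in the levels of Rpl3, Rpl3l, Pelo or Sesn2 was not tested.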

How the data were processed

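The authors deposited read counts per gene as whole numbers, beside FPKM values (counts over row length and library total). The submitters' processing notes name HISAT2 2.0.4, StringTie 1.3.0 and build Rnor 6.0, and ribosomal RNA was depleted before library preparation per the labels' protocols. How the counts were made, with or without strand, and what became of reads with more than 1 match, the sources used here do not state. The authors' FPKM equalled count over length and library total within 0.1% in 13409 of 13409 genes that could be checked.

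Groups and replicate numbers came from the titles. Counts were fitted over the whole table with edgeR 4.0.16 in R 4.3.3: filterByExpr (minimum count 10, minimum total count 15), TMM factors, the quasi-likelihood F test, and Benjamini-Hochberg adjusted p under 0.05 as the call, whatever the fold. The filter left 12873 of 30957 genes, and the common biological coefficient of variation was 0.381. CPM are TMM-scaled. Ratios of paralogues used a prior of 0.5 counts and exact permutation of 3 against 3 libraries. DESeq2 1.42.0, limma 3.58.1, other scalings and filters, a replicate block, a term for the ji libraries and leaving out each library were alternatives. Library pairs differed by more than sampling noise (chi-square per degree of freedom 38.2 to 721), so none was treated as a duplicate. The procedure was tested on simulated data. Figures were drawn with matplotlib 3.10.9.

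The members and lists were chosen with earlier results of these data known. The named members were the paralogue pairs, the stalk proteins, Rpsa and Rps27a, in each subunit the 5 smallest p, the 3 highest and 3 lowest fold changes, the 3 most and 2 least abundant by FPKM, and in each list up to 3 genes with the smallest adjusted p. 1 large subunit gene that this rule picks is not reported here by name, and Rps4y2 and the picks of the marker lists (Coro1a, Col3a1, Col1a1, Pdgfra, Tie1, Cdh5, Emcn, Mb, Ckm and Tnnt3) are not given one by one in the report. Others are said to be picked after their values were seen, or are named to complete a pair or a list: Rpl5, Hbs1l, Eef2, Larp1, Cd3e, Cd79a and Col1a2. Sequences came from RefSeq's promoter table of GRCr8 and were matched by symbol and chromosome.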

Additional observations from a re-analysis of the deposited data

How the results depend on the processing

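Of 960 values of 54 named genes under the alternatives, 860 kept their direction and side of the threshold, 40 passed it anew, 24 fell short of it and 36 changed sign, in 11 genes. The count of members lower in ACS was 0 under all alternatives run. The count of members higher, 0 in the reported fit, was 3 with DESeq2 (Rpl3, Rps14 and Rpl13), 1 with limma on log2(FPKM + 1) (Rps14) and 1 with rows summed per protein (S14). Leaving out single libraries it ranged from 0 to 4, the 4 being Rpl3, Rps14, Rpl9 and Rps19 without ACS replicate 3. The genes called over the whole table, 533 in the reported fit, numbered 1749 with DESeq2, 333 with limma-voom, 908 with no filter, 280 with a term for the ji libraries and 201 without both ji libraries. Leaving out single libraries they ranged from 0 (without any 1 control library, with 2063 to 2289 at an unadjusted p under 0.05) to 1684 (without ACS replicate 3), with 878 without ACS replicate 1 and 299 without ACS replicate 2. The causes were not tested. A void count without a control library says nothing of the members' stability.

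The members' median log2 fold change was -0.22 with library totals and -0.26 with limma on log2(FPKM + 1), where the median of all genes was -0.32 and -0.30, and -0.14 to 0.21 leaving out single libraries. The large minus small subunit difference was 0.043 with limma on log2(FPKM + 1), 0.090 with 50 counts in every library of a group, and -0.093 to 0.065 leaving out single libraries. The difference in the Rpl3 to Rpl3l log2 ratio kept its sign in all alternatives, from 0.95 to 2.60. With library totals log2 fold changes turned to -0.13 for Rpl7, -0.057 for Rpsa, -0.20 for Rps27, -0.081 for Rps27l, -0.21 for Rps4x, -0.21 for Rps4y2 and -0.049 for Tnnt3. With limma on log2(FPKM + 1) they turned to -0.14 for Rpl7, -0.085 for Rpsa, -0.23 for Rps27, -0.22 for Rps27l, -0.23 for Rps4x, -0.093 for Rps4y2 and -0.11 for Tnnt3. Rpl22l1 turned to 0.18 with limma-voom, 0.19 with the ji term and 0.52 without both ji libraries, where Rps27l turned to -0.099. Leaving out single libraries, values that changed sign ranged from -0.37 to 0.062 for Rplp0, -0.013 to 0.36 for Rpl7, -0.57 to 0.99 for Rpl22l1, -0.20 to 0.34 for Rps27, -0.64 to 0.72 for Rps27l, -0.81 to 0.093 for Rps2 on chromosome 10, -0.69 to 0.033 for Rps29 on chromosome 3, -0.032 to 0.22 for Rps4x and -0.14 to 0.47 for Rps4y2.

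Replicate numbers are shared by the groups, but same-numbered libraries deviated with correlations of -0.062, 0.013 and 0.040 over 12873 genes, so the numbers were not taken to pair them, although both replicates 3 carry the letters ji. A replicate block left 505 genes called and 0 members, a log2 fold change of 1.25 for Rpl3 and 0.18 for Rpl22l1, and the Rpl3 to Rpl3l difference at 1.60 (two-sided exact permutation within pairs, p = 0.5). Rows such as Rps14, Rps20 and Rps27a rest on fewer than 30 counts per library, and 3 libraries a group allow no exact p below 0.1.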
